A study of Mus musculus with 6 samples.

Results

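The regions described here are TERT CUT&Tag regions at promoters of protein-coding transcripts. They were chosen as the regions on chromosomes 1 to 19 and X whose deposited annotation is the promoter class (promoter-TSS) with a RefSeq protein-coding (NM) transcript. This gave 6509 of 41515 regions on those chromosomes. CUT&Tag uses an antibody to bring a transposase to a protein on chromatin, so that DNA beside the protein is cut and tagged. The antibody was against TERT, the catalytic protein of telomerase. The cells were primary neurons from cortex and hippocampus of C57BL/6 mouse embryos at E15-18. Per the protocol in the labels, 3 samples received vehicle (dimethyl sulfoxide) and 3 received BIBR1532, a small-molecule telomerase inhibitor, at 2 µM, both for 24 h. The characteristics field calls the vehicle samples untreated. All 6 samples are cultures from that strain, with no genetic change named, and the labels do not say whether they came from separate embryos or litters.

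The deposited lists are made from the pooled triplicates of each condition. The common list holds regions called common to both pools and gave 3289 promoter regions. The BIBR1532 list, of regions with more signal in the inhibitor pool, gave 1566. The vehicle list, of regions with more signal in the vehicle pool, gave 1654. Which condition-specific list belongs to which pool was read from the order of the conditions in the list names, so the direction is likely rather than stated. Each condition is 1 pooled measurement with no replicate values, and the depth is unknown. Fisher's exact tests below therefore compare lists of regions, not conditions, and exact (Clopper-Pearson) 95% intervals cover counting error only. Regions of 1 promoter are neighbours and not independent.

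A promoter is the DNA around a transcription start site, where general factors and RNA polymerase II assemble. In active promoters the stretch just upstream of the start is kept free of a nucleosome, the unit of DNA wound on histones, and nucleosomes stand at set places on both sides. Many mammalian promoters are rich in CpG dinucleotides and work in most cell types, and many of these fire in both directions. TERT is best known for extending telomeres with the repeat TTAGGG. Whether it lies on chromatin of promoters, and where after telomerase inhibition, is the question these lists address. The lists record TERT antibody signal; no library without that antibody is used here.

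To show what kind of sequence lies under these regions, the 250 bases before the start site are printed for 4 promoters, from RefSeq windows on GRCm38.p6, the assembly also named mm10. Anapc4, Grk6 and Zfp367 held regions of all 3 lists. Mogs held a BIBR1532 and a vehicle region and no common region. All 4 windows lie before the first base of the transcript and inside no annotated gene. Capitals mark matches, on either strand, to the GC box (GGGCGG), the CCAAT box (CCAAT), the ETS core (CCGGAA) and the telomeric repeat unit (TTAGGG).
Anapc4, chr5:52833885-52834134, plus strand: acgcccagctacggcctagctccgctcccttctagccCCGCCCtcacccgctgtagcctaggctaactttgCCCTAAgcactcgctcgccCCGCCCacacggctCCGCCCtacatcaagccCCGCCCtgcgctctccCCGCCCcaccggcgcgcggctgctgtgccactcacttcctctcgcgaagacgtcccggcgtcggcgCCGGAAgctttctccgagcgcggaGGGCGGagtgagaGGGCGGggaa
Grk6, chr13:55444822-55445071, plus strand: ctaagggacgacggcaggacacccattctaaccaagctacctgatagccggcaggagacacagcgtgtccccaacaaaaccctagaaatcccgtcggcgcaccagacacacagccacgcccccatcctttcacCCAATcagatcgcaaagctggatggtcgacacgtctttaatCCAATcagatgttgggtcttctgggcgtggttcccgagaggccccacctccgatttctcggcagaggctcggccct
Zfp367, chr13:64153200-64153449, minus strand: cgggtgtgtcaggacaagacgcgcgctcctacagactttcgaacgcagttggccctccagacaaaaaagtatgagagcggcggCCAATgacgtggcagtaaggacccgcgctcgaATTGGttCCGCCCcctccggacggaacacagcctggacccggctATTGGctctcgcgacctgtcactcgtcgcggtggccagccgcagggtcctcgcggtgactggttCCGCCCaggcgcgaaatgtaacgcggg
Mogs, chr6:83115256-83115505, plus strand: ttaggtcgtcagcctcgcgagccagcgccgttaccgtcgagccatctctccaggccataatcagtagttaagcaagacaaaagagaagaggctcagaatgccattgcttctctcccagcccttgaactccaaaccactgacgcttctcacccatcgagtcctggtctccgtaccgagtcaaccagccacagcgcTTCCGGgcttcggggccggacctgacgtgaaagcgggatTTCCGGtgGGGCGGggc

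The Anapc4 window, from the gene of a subunit of the anaphase-promoting complex, held 7 GC boxes, 1 ETS core, 1 telomeric repeat unit and 30 CpG dinucleotides, at 70.8% GC. The vehicle region covered 222 of its 250 bases, the common region 60 and the BIBR1532 region 0. Grk6, a kinase of G protein-coupled receptors, held 2 CCAAT boxes and 16 CpG dinucleotides, and its common region covered all 250 bases. The Zfp367 window, from a zinc finger gene, held 3 CCAAT boxes, 2 GC boxes and 29 CpG dinucleotides. Its common region covered 190 of the 250 bases and its BIBR1532 region 31. Mogs, the glucosidase that trims the first glucose from new glycoproteins, held 2 ETS cores and 1 GC box, and its vehicle region covered 83 bases. A match is a run of letters, not a shown site of binding.

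Within the promoter class, the common regions sat at the start site and just upstream of it. Position is the distance from a region's centre to the nearest annotated start site, negative upstream. The median was -126 bp in the common list, with quartiles at -267 and 45 bp. It was -211.5 bp in the BIBR1532 list, with quartiles at -464 and 0.75 bp, and -175 bp in the vehicle list, with quartiles at -401.25 and 21 bp. The region itself spanned the start site in 46.3% of common members (interval 44.6 to 48.1%), 28.4% of BIBR1532 members (26.1 to 30.7%) and 31.3% of vehicle members (29.1 to 33.6%). Within the class, the lower quartiles lie farther apart than the upper ones, which the class edge downstream limits. The class reaches 1000 bp upstream and 100 bp downstream of the annotated start, so negative medians are partly built in. With regions of any class within 1 kb of a protein-coding start, the medians were 15 bp (common), 64 bp (BIBR1532) and 73 bp (vehicle).

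In 50-bp bins the common centres had 2 modes around the start. The bin from -200 to -151 bp held 10.1% of the 3289 common members, and the bin from 50 to 99 bp held 12.3%. Between them the bin from -100 to -51 bp held 6.78%. Over 100 bp at a time, -250 to -151 held 19.2% (interval 17.8 to 20.5%), and -150 to -51 held 13.8% (12.6 to 15.03%), so the intervals did not overlap. In the BIBR1532 list the same stretches held 13.6% (11.9 to 15.4%) and 10.98% (9.48 to 12.6%), and in the vehicle list 14.2% (12.6 to 15.98%) and 12.5% (10.96 to 14.2%). Those intervals overlap, which is not a test of the difference. The stretches were set at the mode and dip of the common list. The counts were 213 and 172 in the BIBR1532 list and 235 and 207 in the vehicle list. The upstream stretch held more in both, and whether either list has a dip was not tested. In single bins BIBR1532 members held 6.64% from -150 to -101 bp, 4.34% from -100 to -51 bp and 8.37% from 50 to 99 bp. Vehicle members held 6.17%, 6.35% and 9.43% there. Differences between single bins were not tested.

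**Figure D1:**
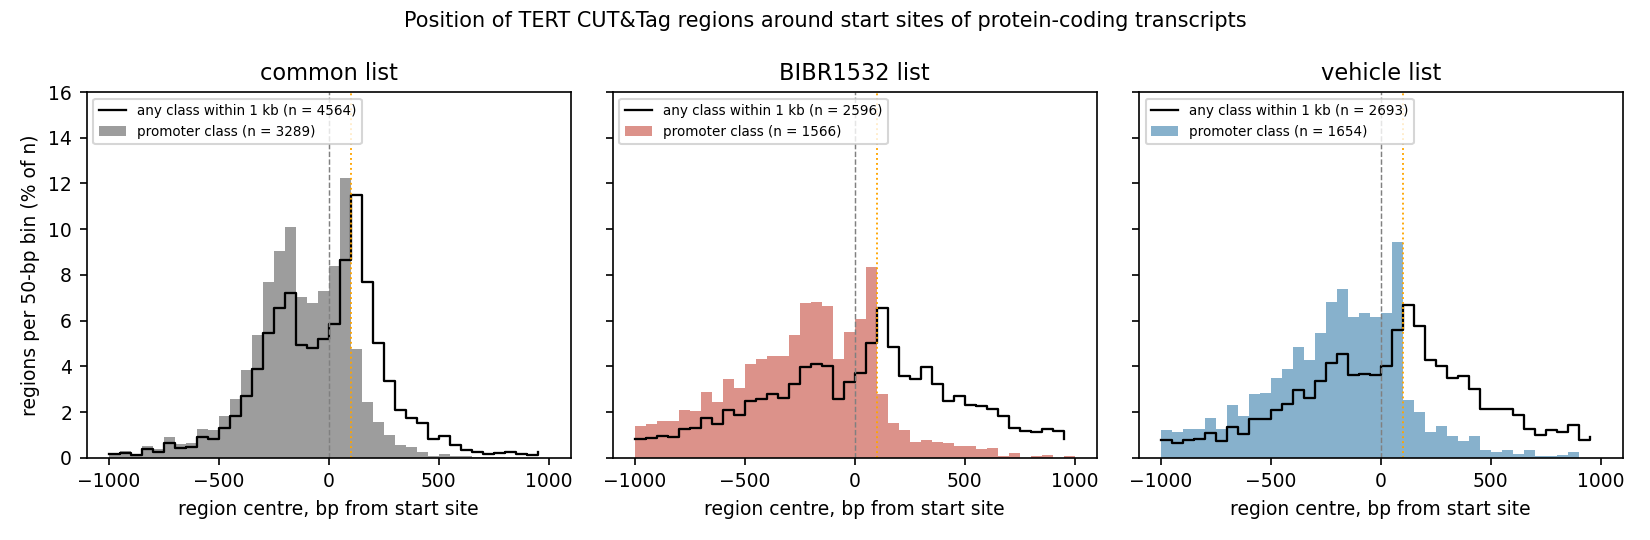
Percent of regions per 50-bp bin of the distance from region centre to start site, for the common, BIBR1532 and vehicle lists; bars are promoter-class regions, black steps are regions of any class within 1 kb of a protein-coding start, the dashed line is the start and the dotted line is 100 bp. Common centres peak at -200 to -151 bp (10.1%) and at 50 to 99 bp (12.3%), and the black steps peak at 100 to 149 bp, past the edge of the class.

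The downstream mode is cut by the edge of the promoter class. That class runs from 1000 bp before to 100 bp after the start of the annotated transcript, and the deposited distance refers to the nearest start of any transcript. Of the members, 734 (11.3%) had a centre more than 100 bp downstream of the nearest start. In all 734 the nearest start belonged to another transcript than the annotated one. When every region within 1 kb of a protein-coding start was taken, whatever its class, the common list held 4564 regions, and the highest bin moved to 100 to 149 bp with 11.5%. In that wider set the span from 50 to 149 bp held 20.2% of common regions (19.002 to 21.4%), against 11.6% of BIBR1532 (10.4 to 12.8%) and 12.3% of vehicle regions (11.04 to 13.6%). The upstream mode was still there, with 13.8% from -250 to -151 bp and 9.77% from -150 to -51 bp. This is no separate check, because the wider set changes little in these stretches. It held 628 and 446 regions there, and the promoter class 630 and 454.

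The 4 position windows separated the common from the condition-specific members most clearly far upstream. Centres far upstream, from 1000 to just over 500 bp before the start, made up 6.23% of common members (5.43 to 7.11%) and 19.8% of the 3220 condition-specific members (18.4 to 21.2%). The difference was -13.5 points (Fisher's exact test, two-sided, odds ratio 0.270, adjusted p = 3.34e-61 over 10 comparisons). From -200 to -1 bp the common share was 31.2% and the condition-specific share 24.7%, a difference of 6.47 points (Fisher's exact test, adjusted p = 2.18e-08). At 0 or downstream it was 32.2% and 26.4%, a difference of 5.86 points (Fisher's exact test, adjusted p = 5.66e-07). From 500 to just over 200 bp upstream the shares were 30.3% and 29.1%, which did not pass the test (Fisher's exact test, adjusted p = 0.363). By the edge nearest the start in place of the centre, they were 9.85% and 20.9%, a difference of -11.0 points that passed (Fisher's exact test, adjusted p = 3.65e-35). With regions of any class within 1 kb they were 21.7% and 17.6%, which passed the other way (Fisher's exact test, adjusted p = 5.62e-07). At 0 or downstream that wider set gave 51.6% of common and 55.7% of condition-specific regions. The difference turned to -4.06 points and passed in that reversed direction (Fisher's exact test, adjusted p = 1.20e-04). In that set 37.0% of common, 46.3% of BIBR1532 and 46.8% of vehicle regions lay more than 100 bp downstream.

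Between the inhibitor and vehicle lists the far upstream window passed the test. There the share was 22.0% of BIBR1532 members (20 to 24.2%) and 17.7% of vehicle members (15.8 to 19.6%). The difference was 4.38 points (Fisher's exact test, odds ratio 1.32, adjusted p = 0.00388). From -200 to -1 bp BIBR1532 members held 23.3% and vehicle members 26.1% (Fisher's exact test, adjusted p = 0.120). At 0 or downstream they held 25.2% and 27.5% (Fisher's exact test, adjusted p = 0.198), and from 500 to just over 200 bp upstream 29.5% and 28.8% (adjusted p = 0.744). Among members over 1 kb from any common region, a setting chosen after seeing the data, the far upstream difference was 3.37 points and no longer passed the test (Fisher's exact test, adjusted p = 0.130). With scores of at least 3 it was 4.15 points and did not pass either (Fisher's exact test, adjusted p = 0.0896). By the edge nearest the start in place of the centre, the window at 0 or downstream passed too, with 38.1% of BIBR1532 and 42.6% of vehicle members (Fisher's exact test, adjusted p = 0.0154).

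**Figure D2:**
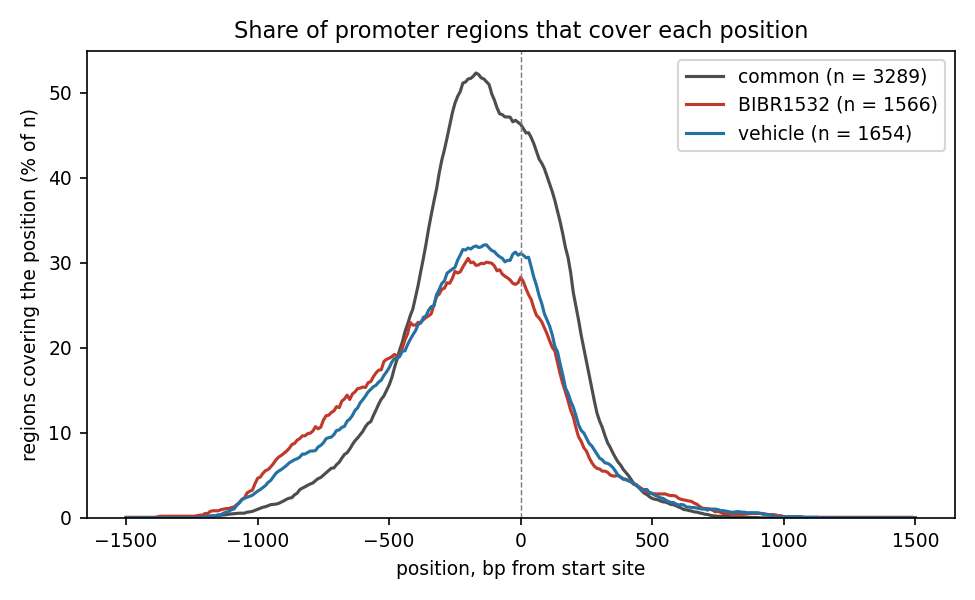
Share of promoter regions of each list that cover each position, against the distance of that position from the start site; lines are the common, BIBR1532 and vehicle lists. Common coverage peaks at 52.3% at -170 bp, while BIBR1532 peaks at 30.5% and vehicle at 32.1%, and both lie above the common line from -1000 to -500 bp.

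Coverage shows the same regions by their full extent rather than their centres. Of common members, 52.3% covered the position at -170 bp, where their coverage was highest, and 46.3% covered the start itself. BIBR1532 coverage was highest at -200 bp, with 30.5%, and vehicle coverage at -140 bp, with 32.1%. At -1000 bp the order was turned: 4.66% of BIBR1532, 3.14% of vehicle and 1.003% of common members covered it. At 500 bp downstream the shares were close, at 2.87%, 2.84% and 2.28%.

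Taken as a list, common promoter regions were the wider ones. The median width was 277 bp in the common list and 219 bp in both condition-specific lists. Of common members, 19.8% were at least 500 bp wide, against 5.87% of condition-specific members, a difference of 13.9 points (Fisher's exact test, odds ratio 3.96, adjusted p = 6.68e-65). BIBR1532 and vehicle members had 5.81% and 5.93%, which did not pass the test (Fisher's exact test, adjusted p = 0.940). No region was narrower than 120 bp. The excess was not seen in all common members. Split by score into 4 groups of like size, those with the lowest scores had a median width of 221.5 bp. Of them 6.57% were at least 500 bp wide, against 26.1%, 28.9% and 17.6% in the other groups, by rising score. Within the common list 22.5% of members centred from -200 to -1 bp were at least 500 bp wide, and 16.1% of the 205 far upstream. From 500 to just over 200 bp upstream the share was 21.4%, and at 0 or downstream it was 16.3%. Differences in width between these windows were not tested.

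**Figure D3:**
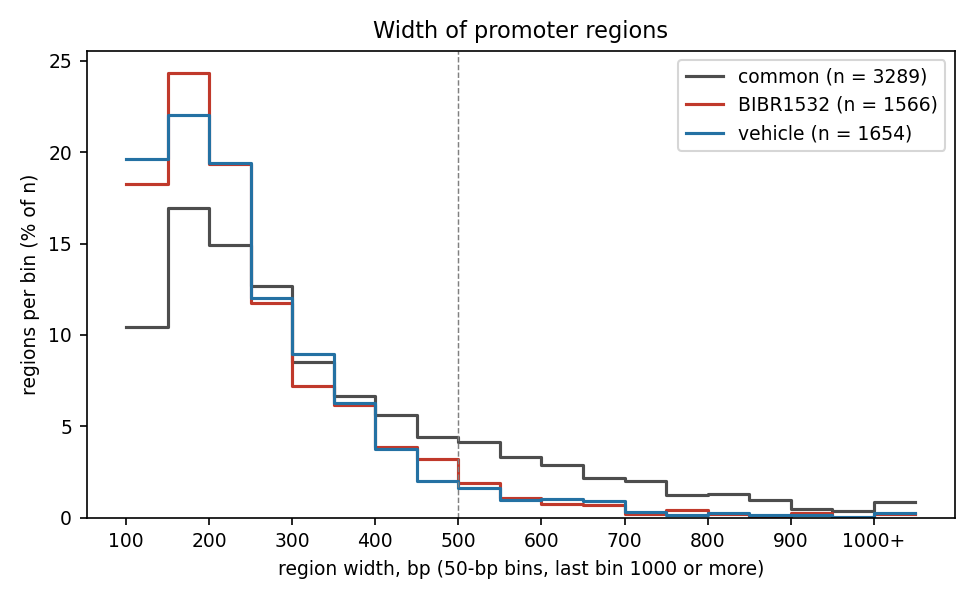
Percent of promoter regions per 50-bp bin of region width, for the common, BIBR1532 and vehicle lists; the last bin holds widths of 1000 bp or more and the dashed line marks 500 bp. The BIBR1532 and vehicle lines nearly coincide, with 5.81% and 5.93% at 500 bp or more, and the common line lies above them there, with 19.8%.

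Promoters went against the rest of their lists in width. Outside the promoter members, 10.3% of common regions (9.35 to 11.4%) were at least 500 bp wide, below the 19.8% of common members (18.4 to 21.2%). In the BIBR1532 list the other regions were the wider ones, with 16.9% (16.3 to 17.5%) against 5.81% of members (4.70 to 7.09%). In the vehicle list it was 16.1% (15.5 to 16.7%) against 5.93% (4.84 to 7.17%). The widest common member was at Tarbp2, a partner of Dicer in making small RNAs, at chr15:102517259-102518809, with 1551 bp centred at -158 bp. Next came Pdk2, a kinase that restrains pyruvate dehydrogenase, with 1365 bp, and Hexim1, an inhibitor of the elongation factor P-TEFb, with 1352 bp centred at 5 bp. Gdpd5 had 1253 bp and Tef, a clock-controlled transcription factor, 1242 bp. All 5 spanned the start site.

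The widest BIBR1532 members were Olfr56, an olfactory receptor gene, with 3314 bp at chr11:49132360-49135673, and Fv1, a retrovirus restriction gene, with 1030 bp. Ccdc38 followed with 1000 bp, Lrriq3 with 940 bp, and Aldh1a1, which makes retinoic acid, with 937 bp. In the vehicle list they were Foxi1, a transcription factor of the inner ear and kidney, with 2305 bp at chr11:34207010-34209314, and Ccdc81 with 1379 bp. Gzmd, a granzyme gene, had 1108 bp, Ankrd50 1035 bp and the histone deacetylase gene Hdac3 974 bp. These 10 members also spanned the start site.

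The position of condition-specific members varied with the deposited score. The score is the authors' value for each region and has a most frequent value in each condition-specific list, 6.34 in the BIBR1532 and 5.19 in the vehicle list. Of BIBR1532 members, 202 (12.9%) carried it, against 50.5% of the other BIBR1532 regions. Of vehicle members, 182 (11.004%) carried it, against 54.0% of the others. These tied members lay far upstream in 38.6% of BIBR1532 cases, and those with a lower score in 17.7%, a difference of 21.0 points (Fisher's exact test, adjusted p = 4.22e-09 over 16 comparisons). In the vehicle list it was 31.3% and 11.8%, a difference of 19.5 points (Fisher's exact test, adjusted p = 4.22e-09).

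Members with a score above the tied value lay between. They were far upstream in 25.5% of BIBR1532 cases (7.87 points above the low scores, Fisher's exact test, adjusted p = 0.00531) and 22.7% of vehicle cases (10.96 points, adjusted p = 2.53e-07). At 0 or downstream the order was the reverse: 28.4% of the low, 20.1% of the high and 16.8% of the tied BIBR1532 members, and 31.7%, 24.9% and 14.8% of the vehicle members. Tied members were also narrow, with median widths of 174.5 and 184.5 bp in the BIBR1532 and vehicle lists. Within the common list the scores ran from 0.00405 to 0.913, below the threshold of 1 in the list names, and position moved little with them. Split by score into 4 groups of like size, the group with the lowest scores had 8.27% of its members far upstream, and the other 3 had 5.60%, 5.59% and 5.47%.

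**Figure D4:**
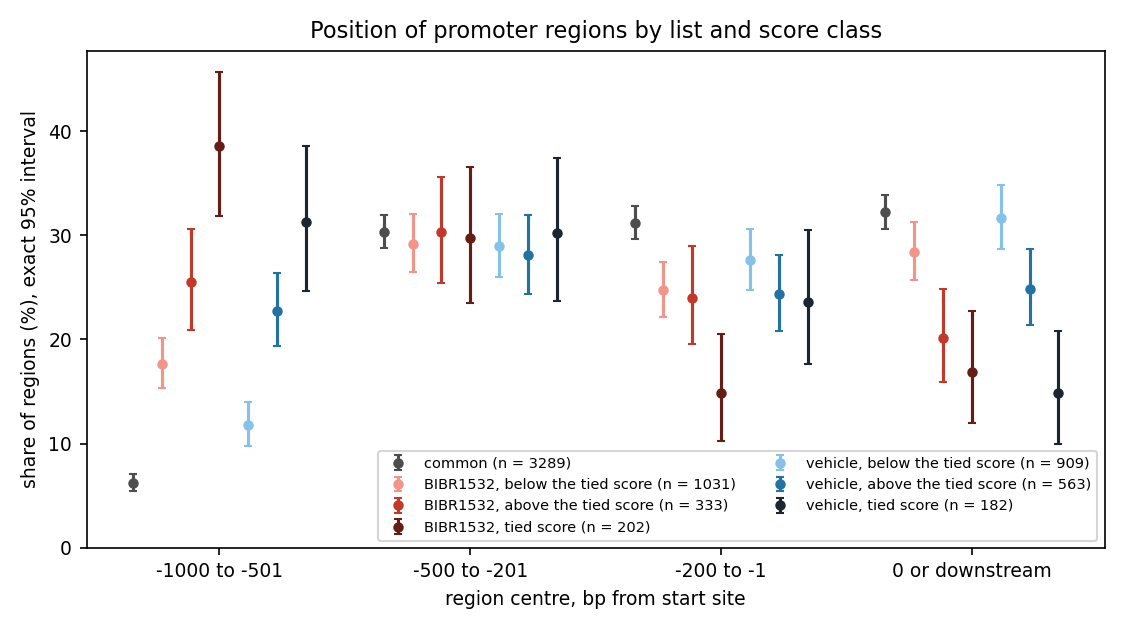
Share of promoter regions in 4 windows of distance from region centre to start site, by list and by score below, above or at the tied value of the list; points are percentages and bars exact 95% intervals. In the far upstream window the tied members are highest (38.6% in BIBR1532, 31.3% in vehicle) and common members lowest (6.23%).

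Many condition-specific members lay beside a common region, and the same share was not taken for the other regions of these lists. Of BIBR1532 members, 37.5% were within 1 kb of a common region, 29.0% within 200 bp, and 9.26% touched it with no base between. Of vehicle members, 39.8% were within 1 kb, 33.3% within 200 bp, and 10.2% touched. Overlap was found in 5.30% and 6.77%. The members beside a common region carried the tied score rarely, 3.58% of BIBR1532 and 1.97% of vehicle ones, against 18.5% and 17.0% of members farther off. The median score was lower beside a common region, with 2.20 and 2.15, than away from it, with 5.12 and 5.19. Of BIBR1532 members, 2.68% were within 200 bp and 11.1% within 1 kb of a vehicle region, and of vehicle members 2.42% and 11.5% lay as near to a BIBR1532 region. The lists are called so that a position cannot be higher in both pools, so overlap between them could not occur.

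Where a condition-specific and a common member had the same nearest transcript, the condition-specific one lay to the outside more often. There were 262 such pairs for BIBR1532 and 323 for vehicle. Both members are of the promoter class, which reaches 1000 bp upstream and 100 bp downstream of the annotated start. That leaves more room upstream and to the outside of most common centres, and its part in the shares of pairs was not tested. Since few condition-specific members overlap a common region, most partners lie wholly to one side of it. The largest overlap was 445 bp in the BIBR1532 and 500 bp in the vehicle list. The condition-specific centre was farther from the start than the common one in 69.8% of BIBR1532 pairs (63.9 to 75.3%) and 64.1% of vehicle pairs (58.6 to 69.3%). It was on the upstream side in 61.8% (55.7 to 67.7%) and 57.3% (51.7 to 62.7%). These intervals overlap, and the difference between the lists was not tested.

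The partners are given by where the common region was. With the common centre upstream of the start, 113 of 191 BIBR1532 partners (59.2%, interval 51.8 to 66.2%) and 117 of 229 vehicle partners (51.1%, 44.4 to 57.7%) lay farther upstream. The upstream partners had median centres at -558 and -514 bp, and the downstream partners at -64 and -28.5 bp, close to the start. With the common centre at the start or downstream, 69.0% of 71 BIBR1532 partners (56.9 to 79.5%) and 72.3% of 94 vehicle partners (62.2 to 81.1%) lay upstream of it. The intervals of both settings overlap for BIBR1532 and not for vehicle, and the difference was not tested. Those upstream partners had median centres at -237 and -206 bp, about where common regions have their upstream mode.

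**Figure D5:**
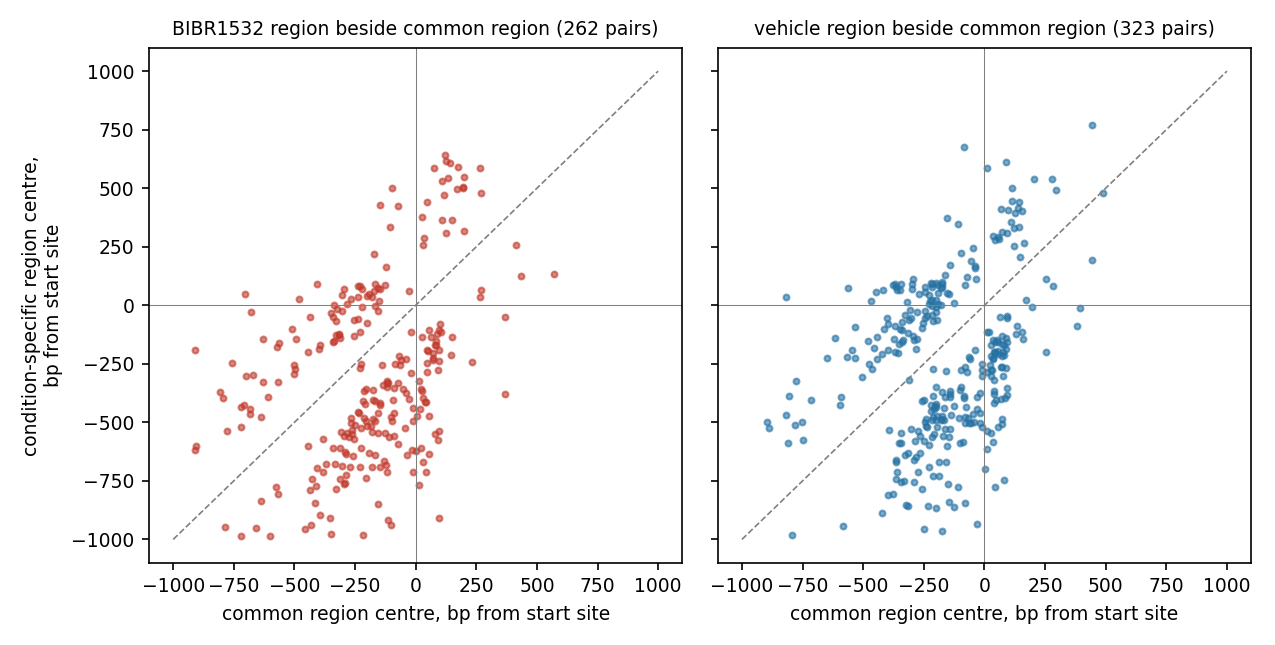
Centre of each condition-specific promoter region against the centre of the nearest common promoter region with the same nearest transcript, in bp from its start site, for BIBR1532 (262 pairs) and vehicle (323 pairs); the dashed line marks equal centres. Most points lie off the dashed line, and 61.8% and 57.3% of pairs lie below it, on the upstream side.

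The members named 5263 genes, of which 2277 had only common, 1056 only BIBR1532 and 1091 only vehicle members. Of the 1478 BIBR1532 genes, 25.6% also had a common member, and of the 1574 vehicle genes 28.0%, beside 13.9% of all 21631 protein-coding genes. As a share of the 3073 common genes these were 12.3% and 14.3%. BIBR1532 and vehicle members met at 66 genes, 4.47% of BIBR1532 and 4.19% of vehicle genes, beside 7.11% of all protein-coding genes with a vehicle and 6.68% with a BIBR1532 member. Of those, 23 also had a common member.

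At the 23 genes with members of all 3 lists, by distance to its own nearest start, the BIBR1532 region was farthest upstream in 16, the vehicle region in 6 and a common region in 1. The common region stood between the others in 14, and in 10 of the 23 all members had the same nearest transcript. At Grk6 the 3 regions abutted. A BIBR1532 region at chr13:55444464-55444690 ended where the common region at chr13:55444691-55445258 began, and that ended where the vehicle region at chr13:55445259-55445520 began. The printed Grk6 window lies wholly in the middle one, and the vehicle region has another start as its nearest. At Tesk2, a kinase that acts on cofilin, the BIBR1532 centre was at -487, the common one at -176 and the vehicle one at 91 bp. At Anapc4 the order was the same, with centres at -843, -414 and -101 bp. At Pknox1, a homeobox gene, it was again the same, at -771, -412 and -60 bp.

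At Zfp367 the order was the opposite. The vehicle region was far upstream, at -965 bp, the common one at -173 and the BIBR1532 one downstream at 219 bp. At Rbfox2, a splicing factor with several promoters, Spata13 and Kcnn2, a calcium-activated potassium channel, the BIBR1532 region was farthest upstream by distance. The members of these genes lay around different starts. Over all 40 pairs of a BIBR1532 and a vehicle member with the same nearest transcript, with or without a common region, the BIBR1532 one was upstream in 20. The centres of these pairs were 215 to 1184 bp apart, with a median of 502.5 bp. The place of the BIBR1532 region is also given by whether the gene had a common member. With a common member at the gene it was upstream in 7 of 11 pairs, and without one in 13 of 29. The order seen in the 23 genes was thus not seen over all 40 pairs, most of which had no common member.

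Genes with a BIBR1532 and a vehicle but no common member numbered 43. At Mogs the BIBR1532 region, at chr6:83114595-83115091, was centred at -663 bp, and the vehicle region, at chr6:83115423-83115762, at 86 bp. Smad3, a transducer of TGF-beta signals, had the opposite order, with the vehicle centre at -453 bp and the BIBR1532 centre at -27 bp. At Eif2a, a translation initiation factor, the centres were at -973 bp for vehicle and -219 bp for BIBR1532. Ldb1, Rnf4, Aff1, Nol4 and Mthfs, the other 5 of the 8 genes with most summed width, had theirs at different starts.

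Some genes carried several members of 1 list, not always at 1 start. Of the common genes 2868 had 1 member, 197 had 2 and 8 had 3. At Agbl5, an enzyme that removes glutamates from tubulin, common regions were centred at -975, -444 and 42 bp. At Mex3c, an RNA-binding ubiquitin ligase, they were at -731, -483 and -146 bp, and at Nr6a1, an orphan nuclear receptor, at -728, -404 and -153 bp. In the BIBR1532 list G3bp2, a stress granule protein, and Limd2 had 4 members each and Garnl3 had 3. In the vehicle list C2cd2l, Mtrf1l and Prelid1 had 3 each. The 3 of Mtrf1l lay upstream, at -844, -504 and -262 bp, and those of Prelid1 at the start and downstream of it, at 42, 482 and 890 bp.

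Of 21631 protein-coding genes on these chromosomes, 13.9% had a common, 6.68% a BIBR1532 and 7.11% a vehicle promoter region. Gene lists chosen by function are described beside these shares, by counts and positions and with no test. The genes named in each list are those whose member lies nearest the start, so their positions do not stand for the list. Chaperones, which fold proteins, had a common member at 12 of 25 genes, with a median centre at -153 bp. Cct3, a subunit of the chaperonin that folds actin and tubulin, had it at -7 bp, Calr, a calcium-binding chaperone, at 43 bp and Hspa1a, an inducible heat shock protein, at 62 bp. Proteasome subunits had one at 8 of 25, with Psmc4 at 42 bp and Psmc5 at 72 bp, both ATPases of the regulatory particle. Ribosomal proteins had one at 7 of 25, with Rplp1 at 65 bp and Rplp0 at 70 bp. Splicing factors had one at 6 of 25, with Prpf3 at 13 bp and Srsf2 at -37 bp. Proteasome, ribosomal and splicing genes had median common centres at -160, -180 and -170.5 bp. Respiratory chain genes had a common member at 4 of 25, near the background share. Each of these groups had 1 or 2 genes of 25 with a BIBR1532 member and 3 to 5 with a vehicle member.

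Chromatin regulators and immediate early genes each had common members at 10 of 25 genes. Among the chromatin regulators, Eed, a Polycomb subunit, had its centre at 8 bp, Smarca4, the motor of the BAF remodeller, at 44 bp in a region 892 bp wide, and Dnmt1, the maintenance DNA methyltransferase, at -46 bp. Immediate early genes answer neuronal activity within minutes. Their common members had a median centre at -247 bp, upstream of the -126 bp of all common members. Btg2, an antiproliferative gene, had its centre at 5 bp, Jun at -7 bp and Maff at -28 bp. This list also had BIBR1532 members at 6 of 25 genes and vehicle members at 2, with medians at -407.5 and -391.5 bp.

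Neuronal groups were mixed. Postsynaptic receptors and scaffolds had them at 2 of 25 genes and voltage-gated channels at 2 of 25, below the background share. Both had more vehicle genes than common ones, 6 and 4, with median vehicle centres at -156 and -563 bp. The genes named here are again those nearest the start. Dlg4, the scaffold PSD-95, had a vehicle region at -53 bp, Grik2, a kainate receptor, at -36 bp and Cacnb4, a calcium channel subunit, at -24 bp. Presynaptic release genes had common members at 6 of 25, among them Pclo at 3 bp and Snap25 at -11 bp. Genes of the neuronal cytoskeleton had them at 8 of 25 and vehicle members at 7, with Dclk1 at 40 bp and Dpysl3 at -53 bp. Neuronal transcription factors had common members at 4 of 25 and BIBR1532 members at 5, with Lhx2 at 88 bp. Axon guidance genes had 3 and cell cycle genes 4 of 25 with a common member. Of 22 telomerase and telomere genes, 5 had one, 1 a BIBR1532 and 2 a vehicle member. Those common members had a median centre at -45 bp, with Ten1, of the CST complex, at 21 bp, Zbtb48, which binds telomeric repeats, at -45 bp and Pinx1, a binder of telomerase, at 62 bp.

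Cell type markers were set against the label of the cells. Of 12 neuron markers, 5 had a member in any list, and 2 of those, Snap25 and Syt1, a common one. Members of any list named 5263 genes, beside 21631 protein-coding genes in all. A common member was at 13.9% of protein-coding genes, and the 2 of 12 is near that share. Stmn2 had a vehicle region at -135 bp. Of the markers of other cells, 0 of 8 astrocyte, 0 of 8 oligodendrocyte, 0 of 8 microglial and 0 of 6 endothelial genes had a common member, and of 6 progenitor markers 1 had, Vim. Each of these lists alone is too short to tell 0 from 13.9%. Condition-specific members lay at Aldoc, Nes and Vim in the BIBR1532 list and at Gfap and Mbp in the vehicle list. A promoter region is not a measure of expression, and most neuron markers had none, so these lists do not settle the cell type.

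The common promoters were rich in CpG. A RefSeq window of 300 bases, from 250 before to 50 after the start, was matched to 80.7% of common members and gave 2512 different windows. It was matched to 76.8% of BIBR1532 and 77.6% of vehicle members, so the check of sequence content is void for those lists, because fewer than 80% of members had a value. Windows were called CpG-rich with at least 50% GC and an observed over expected CpG ratio of at least 0.6. This held for 85.9% of common windows (84.5 to 87.2%) and 45.6% of all 21045 protein-coding windows in the table (44.9 to 46.3%). The median GC was 63.7% and 56.7%. The position of common members differed little by this measure, with a median centre at -125 bp at CpG-rich and -112.5 bp at CpG-poor windows.

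Most of the short motifs searched were also more frequent at common promoters than in all protein-coding windows. The condition-specific lists were not compared, so these shares do not set common promoters apart from theirs. Shares count windows with at least 1 match on either strand. The GC box was in 76.8% of common windows (75.1 to 78.4%) and 46.7% of all. The ETS core was in 30.1% (28.3 to 31.9%) and 18.9%, the NRF1 core (GCATGCG) in 7.21% (6.22 to 8.29%) and 4.48%, and the CCAAT box in 48.5% (46.6 to 50.5%) and 38.5%. The Myc and Max E-box (CACGTG) was in 10.5% (9.37 to 11.8%) and 7.91%, the YY1 core (AAGATGG) in 8.08% (7.04 to 9.22%) and 6.28%, and the cyclic AMP response element (TGACGTCA) in 3.26% (2.60 to 4.04%) and 2.26%. The TATA box (TATAAA) went the other way, with 4.50% (3.72 to 5.38%) against 12.7%. The telomeric repeat unit was in 9.67% of common windows (8.55 to 10.9%) and 10.5% of all (10.1 to 10.9%), and these intervals overlap. Common windows and all windows differ in CpG content, and its part in these shares was not tested.

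Promoters with a second start nearby had a different profile. A divergent start, on the other strand within 1 kb upstream, was in the table for 24.2% of common windows (22.6 to 26.0%) and 12.4% of all. Among the 625 common members at such windows, 57.8% had their centre at the nearest start or downstream and 1.28% far upstream. Among the 2030 members without one, the shares were 25.0% and 7.19%. Part of this is built into the measure, because the far upstream stretch of a divergent promoter is nearer to the other start. These regions spanned a start in 57.4% of cases, against 44.0% without a divergent start.

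Chromosomes differed in how many of their genes had members. On the X chromosome 5.49% of 966 protein-coding genes had a common, 3.31% a BIBR1532 and 5.38% a vehicle promoter region. On the autosomes the common share ran from 9.95% on chromosome 6 to 17.0% on chromosome 19. The BIBR1532 share ran from 4.63% on chromosome 7 to 8.39% on chromosome 12, and the vehicle share from 5.30% on chromosome 16 to 9.01% on chromosome 8. The X was lowest for common and BIBR1532 regions, while its vehicle share was within the range of the autosomes. These shares are given without a test.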

How the data were processed

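TERT CUT&Tag was done in 3 vehicle and 3 BIBR1532 samples of mouse primary neurons. Per the submitters' processing notes, the genome build was mm10 and the tools were MACS2 2.1.2, Picard, Bowtie2 and CASAVA 1.8, whose roles are not stated. Per the file headers, pooled triplicates were compared by a step named bdgdiff, with 1 as threshold in the list names, and regions were annotated with annotatePeaks.pl. Each region has a score that the authors deposited, with its scaling not stated, and the score was used only to group and filter regions within a list. The deposited distance column holds bases from region centre to nearest start site. The BIBR1532 and vehicle lists were decoded from a 7-bit text encoding.

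Members were taken by annotation class and counted in 4 windows of distance and at a width of at least 500 bp. Fisher's exact test (two-sided) compared lists of regions, with Benjamini-Hochberg adjustment over 10 comparisons, and over 16 for score classes. A comparison of CpG content was planned in the same family and was not run, because fewer than 80% of the condition-specific members had a window. Windows were matched to members by gene and by start sites within 250 bp; printed ones match exactly. Sample depth is unknown.

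Genes were named by a rule: per list the 5 widest members and the 3 genes with most members, 8 genes of largest summed width in each shared set, and up to 3 genes per gene list whose member lies nearest the start. Not every gene the rule takes is reported here. The members, gene lists and rule were chosen with earlier results of these data known. Alternatives were scores of at least 3, no tied scores, 1 region per gene, merging within 1 kb, other width limits, the nearest edge, the annotated transcript as nearest, and any class within 1 kb. Tests used scipy 1.17.1 under Python 3.11.15, with tables in pandas 2.3.3 and numpy 2.4.6 and plots in matplotlib 3.10.9.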

Additional observations from a re-analysis of the deposited data

How the results depend on the processing

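Of 90 alternative values, 74 kept their direction and their side of the threshold after the same adjustment, or for counts stayed within 1.5 times. The far upstream excess of condition-specific over common members and the greater width of common members kept both under every alternative run. The width difference between BIBR1532 and vehicle members, which never passed the test, changed sign to 0.144 points with scores of at least 3, 0.394 with any class within 1 kb, 0.323 after merging within 1 kb and 1.23 at a width of at least 400 bp. Common against condition-specific members gave 4.15 points from 500 to just over 200 bp upstream with any class within 1 kb, and passed. There the nearest edge gave -11.0 and passed, and condition-specific members over 1 kb from a common region gave -0.204. For the same lists, the window at 0 or downstream gave -4.06 with any class within 1 kb and passed in that reversed direction. For BIBR1532 against vehicle, the window from 500 to just over 200 bp upstream gave -0.420 where the annotated transcript is nearest, the window at 0 or downstream gave -4.44 and passed by the nearest edge, and the far upstream window gave 4.15 and did not pass with scores of at least 3, and 3.37 and did not pass among members over 1 kb from a common region, a setting chosen after seeing the data. With any class within 1 kb, which takes in more regions, genes with BIBR1532 and vehicle regions numbered 271, with BIBR1532 and common regions 809, with vehicle and common regions 826, and with all 3 lists 107. No paired analysis was possible because the lists hold pooled triplicates and no column of a sample. For the same reason leaving out a replicate was not run. Unknown depth limits every share here to a description of these lists.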
